A study of Mus musculus with 12 samples.

Results

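The regions described here are stretches of the mouse genome that held sequencing reads in 2 chromatin libraries of RGM embryonic stem cells and almost none in 3 chromatin libraries of Cas9 embryonic stem cells. They were found in a table of reads per 1 kb bin. A bin's read density is its reads divided by the mean reads per autosomal bin of the same library, so that a density of 1 is the autosomal average. A bin was a member when its read density was 0.3 or more in both RGM libraries and 0.05 or less in each of the 3 Cas9 libraries, and members at most 5 kb apart were merged. This picked 77 of 2462755 autosomal bins (0.00313%), which merged into 21 regions. The RGM limit alone was met by 2002520 autosomal bins (81.3%) and the Cas9 limit alone by 114584 (4.65%).

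The RGM libraries came from a 129xCAST hybrid line. They were an anti-FLAG immunoprecipitate of cells with ectopic Gzf1-Flag (clone 56) and an anti-GZF1 immunoprecipitate of wild type cells. The Cas9 libraries came from a Cas9-GFP line. Those the rule used were an anti-FLAG immunoprecipitate of cells with ectopic Gzf1-Flag (clone 35), an anti-GZF1 immunoprecipitate of wild type cells and an H3K27ac immunoprecipitate. The other Cas9 libraries, which the rule did not use, were an anti-GZF1 immunoprecipitate of Gzf1 knockout cells, an anti-GZF1 immunoprecipitate of cells labelled control, and an input without immunoprecipitation. All cells were fixed with formaldehyde and their chromatin was cut with micrococcal nuclease. Each of the 8 libraries stands alone in its group, each Flag line is a single clone, and the other 4 samples of the series were not analysed here.

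Because every group had 1 library, no test between libraries could be run, and the main densities are given with a 95% Poisson interval that covers counting error only. The values in the RGM libraries and the 3 Cas9 libraries of the rule are the values the members were chosen by, so they are a description. The knockout, control and input libraries were not used by the rule. How reads with several alignments were treated, and whether this was the same in all 8 libraries, is not given in the sources used here. The libraries held 10.1 to 94.2 M reads, from 3.93 reads per autosomal bin in the input to 35.8 in the control library, with 8.61 in the RGM anti-GZF1 library. The H3K27ac density at gene ends had a median of 2.63 over 12 pluripotency genes, against 1.51 over 10 differentiation genes, and of 2.36 over 6 genes of feeder cells. Over the Gzf1 gene itself the read density was 0.682 in the knockout library and 0.894 in the control library. The position of the knockout edit was not used here, so this value does not check the label.

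GZF1 is a zinc finger transcription factor with a BTB domain, and H3K27ac is a histone mark of active promoters and enhancers. In chromatin immunoprecipitation most places in the genome still give some reads, from background DNA. Strains of mice differ in many stretches of DNA that are deleted, inserted or present in several near-identical copies, and reads from such copies are hard to place on a reference genome.

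Most of the members were at a single place. On mm10, 61 of the 77 member bins (79.2%), in 8 of the 21 regions, lay within chr17:6422001-6589000, a stretch of 167 kb on proximal chromosome 17. This is in the part of the chromosome known for the t complex, and it holds copies of Dynlt1, which encodes a light chain of the motor protein dynein (Tctex1), and of Tmem181, which encodes a membrane protein. Chromosome 1 held 12 member bins in 9 regions, all between 41644001 and 67700000. The other 4 members were single bins on chromosomes 4, 6, 8 and 14.

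The RefSeq promoter table used here holds 2 windows (250 bases before to 50 bases after a gene's start) inside the chromosome 17 stretch, those of the predicted genes Gm2808 and Gm29721, and both are on the minus strand. They are shown because they are the windows of that table inside the stretch, and they were chosen after the values were seen; no window of Dynlt1b is shown here. The window of Gm2808 is chr17:6535965-6536264 and that of Gm29721 is chr17:6583017-6583316. The sequences are those of RefSeq for GRCm38.p6, printed 5′ to 3′ with CG dinucleotides in capitals.
Gm2808: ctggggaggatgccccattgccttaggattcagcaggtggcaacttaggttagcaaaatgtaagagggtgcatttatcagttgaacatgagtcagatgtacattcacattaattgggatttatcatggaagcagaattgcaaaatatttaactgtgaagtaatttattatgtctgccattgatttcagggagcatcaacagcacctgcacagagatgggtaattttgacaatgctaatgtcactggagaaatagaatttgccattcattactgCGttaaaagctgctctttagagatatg
Gm29721: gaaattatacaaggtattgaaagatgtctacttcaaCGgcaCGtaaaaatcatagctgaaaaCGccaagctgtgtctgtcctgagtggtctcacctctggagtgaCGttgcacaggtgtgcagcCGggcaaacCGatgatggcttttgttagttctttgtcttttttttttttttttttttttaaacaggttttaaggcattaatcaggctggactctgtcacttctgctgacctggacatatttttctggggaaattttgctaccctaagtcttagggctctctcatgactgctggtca
The Gm2808 window had 1 CG and a GC content of 39%, and the Gm29721 window had 6 CG and 42%, against medians of 7 CG and 52.7% over all 32851 promoter windows. No other promoter window shared a run of 25 letters with that of Gm2808, while 22 others shared such a run with that of Gm29721, at most 5 of its 276 runs. The 2 bins under the Gm2808 window, of which 1 is a member, held 10 reads in the RGM anti-FLAG library and 6 in the RGM anti-GZF1 library. All of these RGM reads lay in the member bin, which covers 12% of the window. The other bin had a density of 0 in both RGM libraries. In the Cas9 libraries of the rule the 2 bins held 0 reads with anti-FLAG, 1 with anti-GZF1 and 0 with H3K27ac. The bin under the Gm29721 window is not a member: it held 28.2 and 8 reads in the RGM anti-FLAG and anti-GZF1 libraries, and 2, 1.75 and 0 reads in the Cas9 anti-FLAG, anti-GZF1 and H3K27ac libraries. Both promoter windows therefore sat in bins nearly without reads in the Cas9 libraries of the rule. Most of the Gm2808 window also lay in a bin without RGM reads. The knockout library held 39.4 reads at Gm2808 and 7 at Gm29721, and the control library 58 and 22.

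Just outside the stretch lie the promoter windows of 2 further Dynlt1 copies, Dynlt1c (chr17:6601529-6601828, plus strand) and Dynlt1f (chr17:6655890-6656189, minus strand). They are shown, again chosen after the values were seen, because they let a reader see how alike the neighbouring copies are. Capitals mark the longest run that the pair shares.
Dynlt1c: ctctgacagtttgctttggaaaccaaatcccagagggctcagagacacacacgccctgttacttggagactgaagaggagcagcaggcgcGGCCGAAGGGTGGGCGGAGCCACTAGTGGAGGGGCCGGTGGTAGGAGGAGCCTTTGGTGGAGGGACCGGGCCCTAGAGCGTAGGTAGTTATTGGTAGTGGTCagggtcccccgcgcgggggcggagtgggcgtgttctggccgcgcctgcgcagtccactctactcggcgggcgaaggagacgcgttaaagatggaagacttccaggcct
Dynlt1f: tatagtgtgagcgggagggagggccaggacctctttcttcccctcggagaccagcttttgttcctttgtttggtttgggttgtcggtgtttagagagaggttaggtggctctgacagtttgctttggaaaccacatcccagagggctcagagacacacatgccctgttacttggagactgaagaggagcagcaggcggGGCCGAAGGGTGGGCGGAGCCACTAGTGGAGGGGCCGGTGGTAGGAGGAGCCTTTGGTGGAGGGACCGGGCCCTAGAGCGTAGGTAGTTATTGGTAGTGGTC
The shared run was 102 bases long, and 93 of the 276 runs of 25 letters in the Dynlt1c window were also in the Dynlt1f window and in that of no other gene. The 2 windows are offset, and the shared run stops where the Dynlt1f window ends. The letters before the run, from the start of the Dynlt1c window on, differ at only a few bases. The share of runs thus understates how alike the overlapping part is. The bins under these windows held reads in each immunoprecipitated library, with densities of 0.718 (Dynlt1c) and 1.04 (Dynlt1f) in the RGM anti-FLAG library against 0.956 and 0.963 in the Cas9 anti-FLAG library.

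Across the chromosome 17 members, both RGM libraries were a little below the autosomal average. Members had to reach 0.3 in both, which raises these values. Over all 167 bins of the stretch the densities were 0.508 with anti-FLAG and 0.490 with anti-GZF1. The read density over the 61 bins was 0.837 (0.793 to 0.883) in the RGM anti-FLAG library and 0.886 (0.807 to 0.970) in the RGM anti-GZF1 library. The lowest, median and highest bins were 0.302, 0.756 and 1.87 with anti-FLAG, and 0.302, 0.697 and 3.14 with anti-GZF1. The Cas9 libraries of the rule were nearly empty there: 2 reads in all in the anti-FLAG library, 5.25 in the anti-GZF1 library and 0 in the H3K27ac library. The 0 reads of H3K27ac allow a density of up to 0.00310.

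The libraries that the rule did not use split into different patterns. The input was nearly empty too, with 3 reads over the 61 bins, a density of 0.0125 (0.00258 to 0.0366). The Cas9 knockout and control libraries were not empty: the density was 0.452 (0.423 to 0.482) in the knockout library and 0.465 (0.437 to 0.494) in the control library. In the knockout library the lowest, median and highest member bins were 0, 0.452 and 1.07, and in the control library 0.0923, 0.447 and 1.12. Of the 61 bins, 1 was at 0.05 or less in the knockout library and 0 in the control library, against 59 in the input. So on chromosome 17 the label of missing in Cas9 applies to the 3 libraries of the rule and to the input, and not to the knockout and control libraries of the same line. The knockout and control libraries also held reads in many bins elsewhere that were empty in all 5 libraries of the rule, as given further on, and whether they were aligned and filtered like the rest was not tested.

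**Figure D1:**
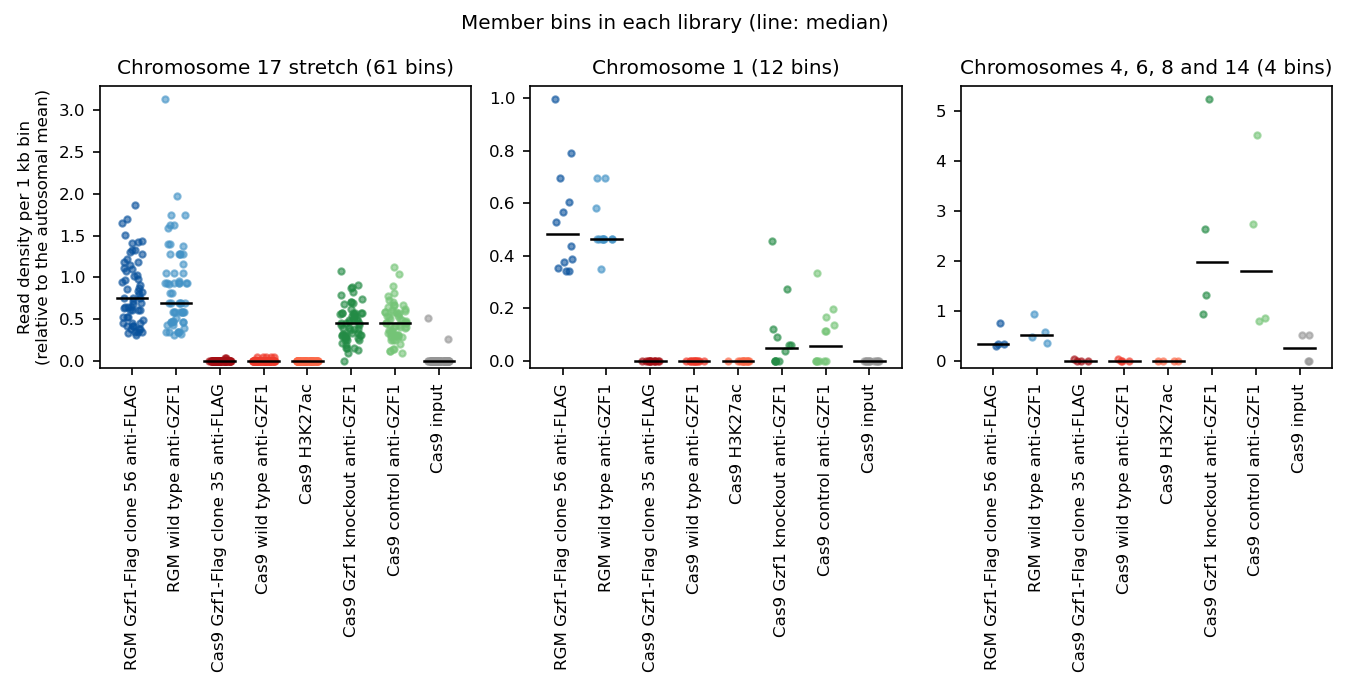
Read density of each member bin (vertical axis, relative to the autosomal mean of the library) in each of the 8 libraries (horizontal axis), for the chromosome 17 stretch, chromosome 1 and the 4 single bins. Points are bins and lines are medians; on chromosome 17 the knockout and control medians are 0.452 and 0.447, while the medians of the Cas9 libraries of the rule are 0.

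Over the whole 167 kb, members and other bins together, the Cas9 libraries of the rule and the input stayed nearly empty, while the RGM reads were uneven. The density was 0.508 in the RGM anti-FLAG library and 0.490 in the RGM anti-GZF1 library. It was 0.00616 (28 reads) with anti-FLAG, 0.00482 (19 reads) with anti-GZF1 and 0.00264 (7 reads) with H3K27ac in the Cas9 libraries of the rule. The knockout library had 0.519 (0.50 to 0.539), the control library 0.521 (0.503 to 0.540) and the input 0.00458 (3 reads). No bin of the stretch reached a density of 0.3 in the Cas9 libraries of the rule, whereas 143 of the 167 did in the knockout library and 145 in the control library.

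Of the 106 bins of the stretch that were not members, 86 missed only the RGM limit, 13 missed only the Cas9 limit and 7 missed both. The 13 bins that missed only the Cas9 limit had RGM densities of 1.13 with anti-FLAG and 1.38 with anti-GZF1, and the highest single value among them in a Cas9 library of the rule was 0.126. The 86 bins that missed only the RGM limit had densities of 0.203 and 0.103 in the RGM anti-FLAG and anti-GZF1 libraries, against 0.566 in the knockout library and 0.568 in the control library. In 27 bins of the stretch both RGM libraries were at 0.05 or less, where the knockout library had 0.590 and the control library 0.630. The bins of the stretch that were not members were therefore mostly bins with few RGM reads. They lay both within and between the 8 regions, and those between regions were not counted apart. The Cas9 libraries of the rule had almost no reads in members and other bins alike.

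On both sides of the stretch the Cas9 libraries of the rule held reads again. In the 50 kb before it, the density was 0.228 and 0.246 in the RGM anti-FLAG and anti-GZF1 libraries, against 0.140 with anti-FLAG, 0.148 with anti-GZF1 and 0.156 with H3K27ac in the Cas9 libraries of the rule. In the 50 kb after it, the RGM libraries had 0.329 and 0.351, against 0.326, 0.359 and 0.294 in the same Cas9 libraries. The extent of the stretch was set by the RGM and Cas9 limits, so a wider gap between RGM and Cas9 densities inside it follows from the choice of members. The knockout library had 0.763 before and 0.819 after the stretch, and the control library 0.729 and 0.787, so both were lower inside it than on either side. The input had 0.102 before and 0.194 after.

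**Figure D2:**
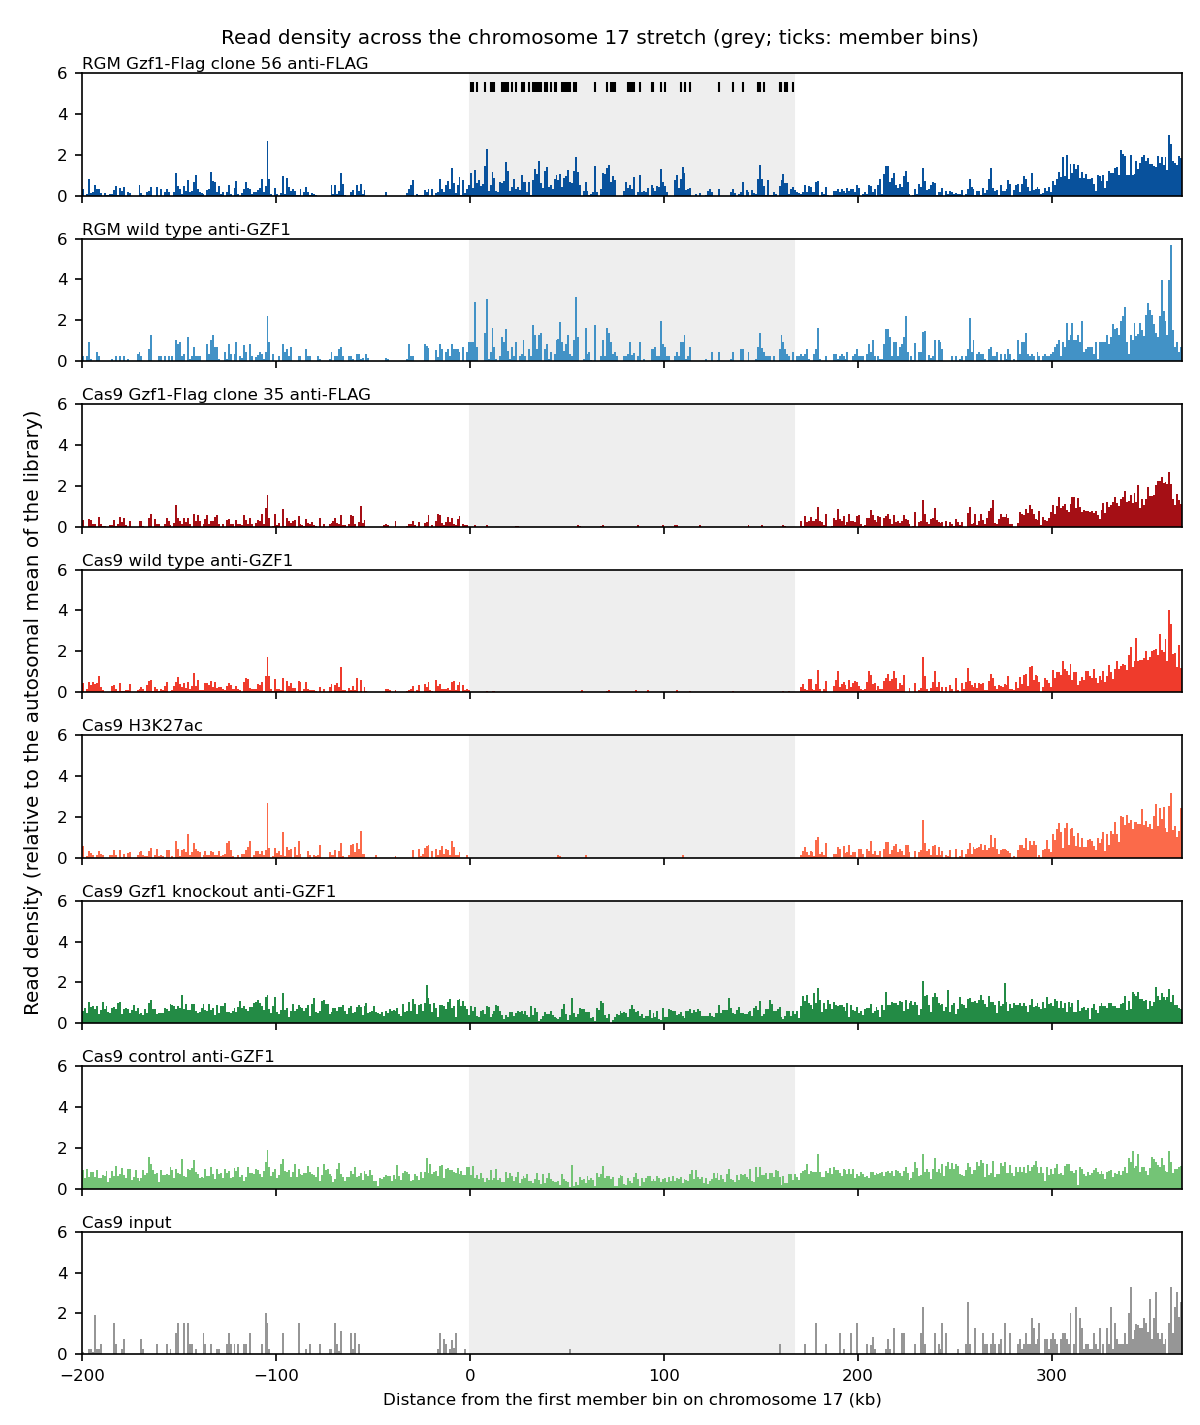
Read density per 1 kb bin (vertical axes, relative to the autosomal mean of each library) against distance from the first member bin on chromosome 17 (horizontal axis, kb), in the 8 libraries. Grey marks the 167 kb stretch and ticks the 61 member bins; the anti-FLAG, anti-GZF1, H3K27ac and input libraries of Cas9 cells are nearly empty there, while the knockout and control libraries have densities of 0.519 and 0.521.

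The 8 regions of the stretch differed in size and in the RGM density of their member bins. The largest, chr17:6422001-6477000, held 33 member bins, with densities over them of 0.935 and 0.971 in the RGM anti-FLAG and anti-GZF1 libraries, 0.444 in the knockout library and 0.476 in the control library. The next, chr17:6503001-6523000, held 9 member bins, at 0.650 and 0.748 in the RGM libraries, 0.458 in the knockout library and 0.393 in the control library. The region chr17:6486001-6497000 held 5 member bins. Over them it had the highest RGM anti-FLAG density of the 8, 1.03, together with the lowest knockout density, 0.165, against 0.375 in the control library. The last region, chr17:6581001-6589000, also held 5 member bins, at 0.565 and 0.650 in the RGM libraries. The other 4 regions held 1 to 3 member bins each. Every region of the stretch thus had reads in the knockout and control libraries.

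Among the genes, Dynlt1b lay wholly inside the stretch at chr17:6429530-6440500, with 54.4% of its span in member bins. Its read density was 0.811 (0.712 to 0.923) in the RGM anti-FLAG library and 0.894 (0.709 to 1.10) in the RGM anti-GZF1 library. It was 0.00670 (2 reads) with anti-FLAG, 0.0116 (3 reads) with anti-GZF1 and 0 with H3K27ac in the Cas9 libraries of the rule. The knockout library had 0.562 (0.487 to 0.645) and the control library 0.535 (0.465 to 0.613), and the input had 0 reads. The gene was thus without reads in 4 of the 6 Cas9 libraries, bar 5 reads in all, and held reads in the other 2.

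The neighbouring pseudogene copy Tmem181b-ps (chr17:6439002-6450994), with 58.4% of its span in member bins, had densities of 0.696 and 0.571 in the RGM anti-FLAG and anti-GZF1 libraries. In the Cas9 libraries of the rule it had 0.00613 with anti-FLAG and 0 with anti-GZF1 and H3K27ac, and it had 0.463 in the knockout library, 0.556 in the control library and 0 in the input. The pseudogene Ppp1r2-ps5, a copy related to a gene for an inhibitor of protein phosphatase, had the highest RGM densities of the genes inside the stretch, 1.31 with anti-FLAG and 1.41 with anti-GZF1. Its densities in the knockout and control libraries were 0.292 and 0.595. Gm2808 and Gm29721, the longest genes inside the stretch, had RGM anti-FLAG densities of 0.481 and 0.202, against 0.00819 and 0.00479 in the Cas9 anti-FLAG library.

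The Dynlt1 and Tmem181 copies outside the stretch held reads in all 8 libraries. Dynlt1a had densities of 0.446 and 0.389 in the RGM anti-FLAG and anti-GZF1 libraries, against 0.375 and 0.422 in the Cas9 anti-FLAG and anti-GZF1 libraries, with 0.911 in the knockout library and 0.900 in the control library. Tmem181a had 0.30 and 0.364 in the same RGM libraries, against 0.256 and 0.301 in the Cas9 libraries, with 0.722 in the knockout library and 0.784 in the control library. Dynlt1c and Dynlt1f had RGM anti-FLAG densities of 0.144 and 0.421, against 0.227 and 0.329 in the Cas9 anti-FLAG library. For these 4 copies the knockout and control densities were the highest of all libraries, at least 0.722. The pseudogene copy Tmem181c-ps, after the stretch, had lower densities in the RGM anti-FLAG and anti-GZF1 libraries, 0.245 and 0.219. The Cas9 anti-FLAG and anti-GZF1 libraries had 0.364 and 0.462 there, the knockout library 0.751 and the control library 0.815. Tulp4, a gene of the tubby family further out, had densities from 0.913 to 1.28 in the 8 libraries, and there the knockout and control libraries were the lowest.

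**Figure D3:**
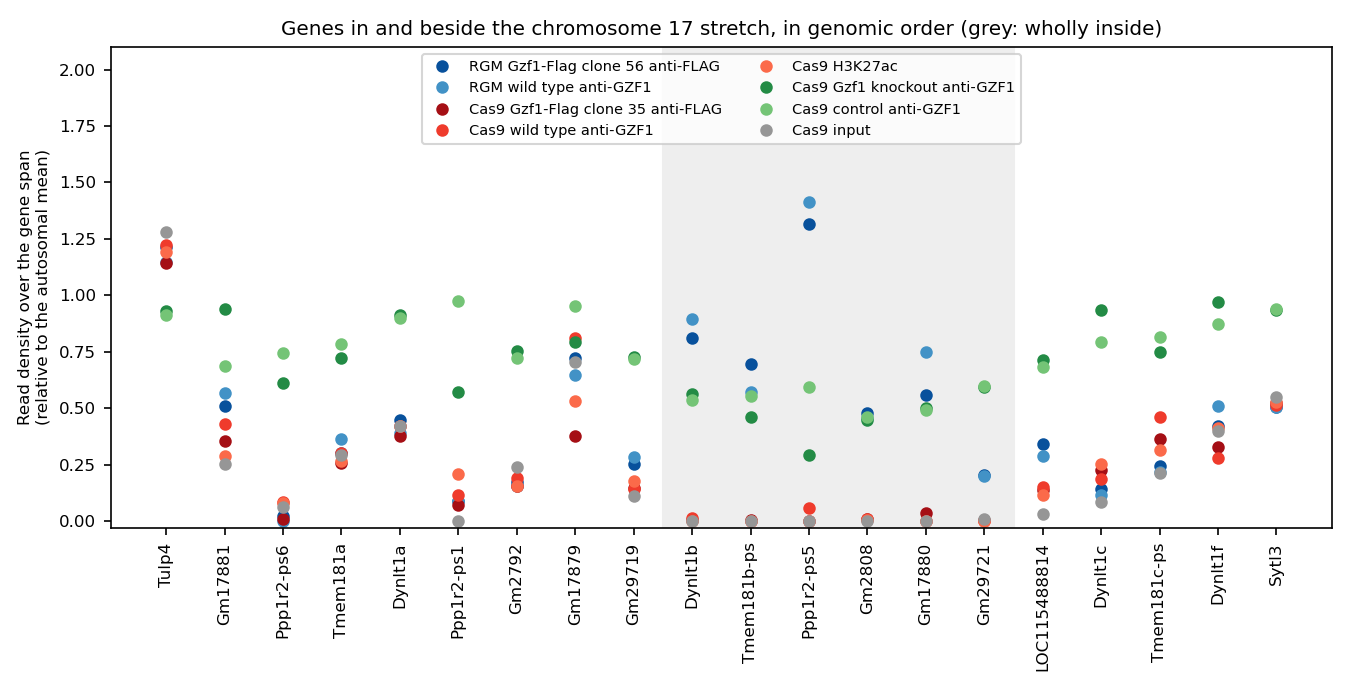
Read density over the span of each gene (vertical axis, relative to the autosomal mean of the library) for genes in and beside the chromosome 17 stretch in genomic order (horizontal axis), with a point for each of the 8 libraries. Inside the stretch (grey) the points of the Cas9 anti-FLAG, anti-GZF1, H3K27ac and input libraries lie near 0, while outside it those libraries had reads at Dynlt1a, Tmem181a, Dynlt1c and Dynlt1f.

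The members on chromosome 1 were different: there the knockout and control libraries were low as well. Over the 12 bins the density was 0.535 (0.458 to 0.622) in the RGM anti-FLAG library and 0.503 (0.376 to 0.660) in the RGM anti-GZF1 library. The Cas9 anti-FLAG, anti-GZF1, H3K27ac and input libraries held 0 reads in these bins, which allows densities of up to 0.00919, 0.0106, 0.0157 and 0.0637 in that order. The knockout library had 0.0917 (0.0638 to 0.126) and the control library 0.0883 (0.0627 to 0.122). In the knockout library the lowest, median and highest bins were 0, 0.0493 and 0.456, and in the control library 0, 0.0559 and 0.335. The counting intervals of these bins in the knockout and control libraries do not overlap those of the chromosome 17 members.

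The empty places on chromosome 1 were short. Each region, taken with adjoining bins at 0.05 or less in every Cas9 library of the rule, was 1 to 3 kb long. The region chr1:44151001-44154000 was not wholly empty. Outside its 2 member bins it held 3 Cas9 anti-FLAG reads and 2 H3K27ac reads. The 9 regions with these adjoining bins came to 19 kb in all and lay within 26.1 Mb, 13.3% of the chromosome. They formed separate groups, with none in the 19977 kb between the regions starting at 45522001 and 65500001. The bins within 10 kb on each side had median densities of 0.704 and 0.697 in the RGM anti-FLAG and anti-GZF1 libraries, of 0.735, 0.698 and 0.756 in the Cas9 anti-FLAG, anti-GZF1 and H3K27ac libraries, of 0.912 in the knockout library, 0.948 in the control library and 0.509 in the input. In the first kb on each side, which could itself be an adjoining empty bin, the medians were lower. They were 0.453 and 0.290 in the RGM anti-FLAG and anti-GZF1 libraries, and 0.110, 0.220 and 0.189 in the same Cas9 libraries. The knockout library had 0.459 there, the control library 0.615 and the input 0.127. Pooled over 10 kb on both sides and the 9 regions, all 8 libraries had reads beside the short gaps. Around the bin at 45522001 alone the input median was 0.

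Of the 9 chromosome 1 regions, 2 lay in genes. The region chr1:44151001-44154000 (2 member bins) lay in Ercc5, which encodes the XPG endonuclease of nucleotide excision repair. Over the 2 member bins the RGM densities were 0.744 with anti-FLAG and 0.465 with anti-GZF1, against 0.167 in the knockout library and 0.0979 in the control library. Over the whole region, with the bin between them, these densities were 0.610, 0.658, 0.294 and 0.149 in the same order. The region chr1:66793001-66796000 (3 member bins) lay in Kansl1l, a gene related to a subunit of the NSL histone acetyltransferase complex, and in the overlapping long noncoding RNA gene Gm46093. Its RGM densities were 0.592 and 0.542, against 0 in the knockout library and 0.0373 in the control library. Member bins made up only 5.83% of the span of Ercc5 and 3.05% of that of Kansl1l, and over the whole gene the density was 1.14 and 1.11 in the RGM anti-FLAG library and 1.24 and 1.31 in the Cas9 anti-FLAG library.

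The other 7 chromosome 1 regions were single bins outside genes. The bins starting at 41644001 and 45522001 had 0 reads in the knockout and control libraries, with RGM densities of 0.353 and 0.697 at 41644001 and of 0.529 and 0.465 at 45522001. The bin at 43644001 had 0.121 in the knockout library and 0 in the control library. The bins at 65500001, 65588001 and 65731001 had 0.0607, 0.0911 and 0.0380 in the knockout library, against 0.335, 0.168 and 0.112 in the control library. The bin at 67699001, with 0.456 in the knockout library and 0.137 in the control library, was the only chromosome 1 member at 0.3 or more in the knockout library. The nearest coding genes of these bins were from 18.7 kb (Col5a2, a collagen gene, at 45522001) to 787 kb (Tmem182, at 41644001) away.

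The 4 single bins elsewhere stood at the other end. Over them the RGM anti-FLAG and anti-GZF1 libraries had densities of 0.435 (0.318 to 0.580) and 0.581 (0.355 to 0.897), against 2.53 (2.26 to 2.81) in the knockout library and 2.22 (1.99 to 2.48) in the control library. The Cas9 anti-FLAG and anti-GZF1 libraries held 1 read each and the H3K27ac library 0. The input held 4 reads, a density of 0.255 (0.0694 to 0.652), in the bins on chromosomes 8 and 14, which is 4 of its 7 reads over all members. The highest was chr8:20332001-20333000, with 5.23 in the knockout library and 4.51 in the control library. The bin chr6:114539001-114540000 had 2.63 in the knockout library and 2.74 in the control library. The bin chr4:147330001-147331000, in the zinc finger genes Zfp978 and Zfp988, had 1.32 in the knockout library and 0.788 in the control library. The bin chr14:4822001-4823000, in the predicted gene Gm26650, had 0.926 in the knockout library and 0.863 in the control library.

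The surroundings of these 4 bins differed from place to place. Pooled over the 4, bins within 10 kb had medians of 0.122 and 0.116 in the RGM anti-FLAG and anti-GZF1 libraries, of 0.131, 0.0848 and 0.126 in the Cas9 anti-FLAG, anti-GZF1 and H3K27ac libraries, of 2.34 in the knockout library and 2.49 in the control library. Around the chromosome 4 bin alone the medians were 0.472 and 0.302 in the RGM libraries, against 0.607, 0.360 and 0.409 in the same Cas9 libraries. Around the bins on chromosomes 6 and 14 the medians of both RGM libraries were 0. The 4 members rested on 8 to 20 reads per bin in the RGM anti-FLAG library and 3 to 8 in the RGM anti-GZF1 library.

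**Figure D4:**
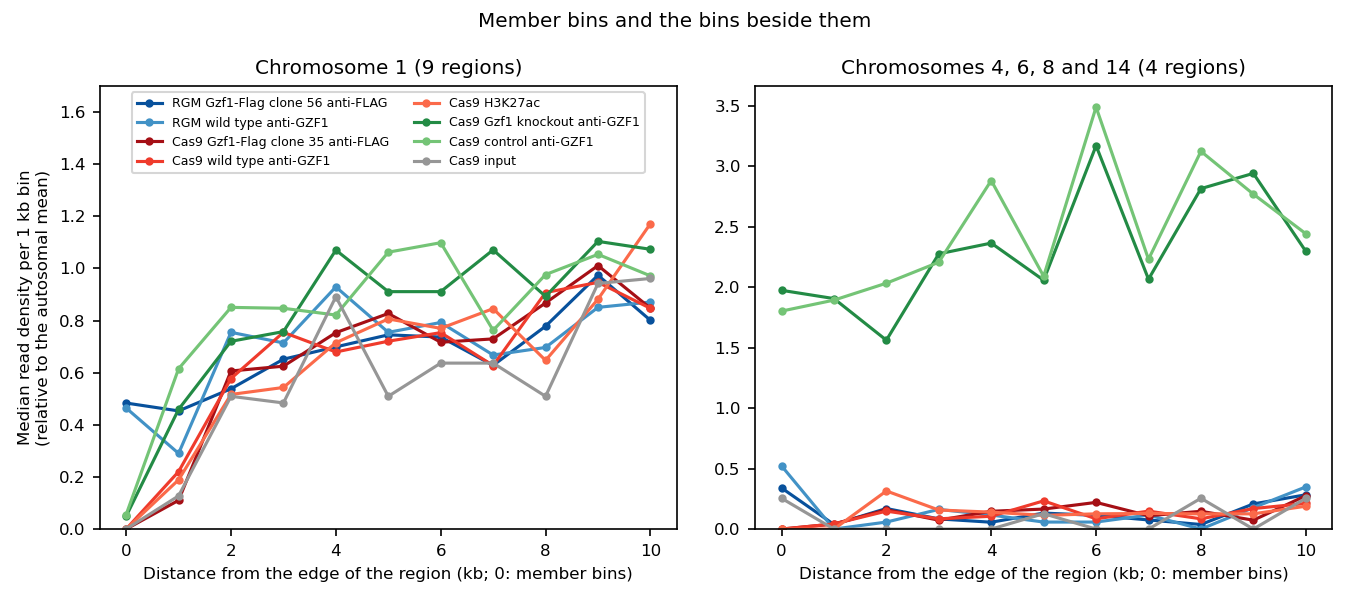
Median read density (vertical axis, relative to the autosomal mean of the library) against distance from the edge of a region (horizontal axis, kb; 0 is the median of the member bins), for the 9 chromosome 1 regions and the 4 single bins. On chromosome 1 the knockout and control libraries fall to 0.0493 and 0.0559 in the members, against flank medians of 0.912 and 0.948, and in the 4 single bins they are at 1.97 and 1.80.

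Over the 77 members as a whole the density was 0.504 (0.476 to 0.532) in the knockout library, 0.498 (0.472 to 0.525) in the control library and 0.0232 (0.00931 to 0.0477) in the input. These pooled values average the low chromosome 1 bins, the chromosome 17 stretch and the high single bins. Of the 77 members, 7 (9.09%) were at 0.05 or less in the knockout library and 6 (7.79%) in the control library. Over all autosomal bins the share was 2.71% in each library, and over the 2002520 bins that met the RGM limit it was 12 bins (0.000599%) in the knockout library and 10 bins (0.000499%) in the control library. Of those 12 bins 7 were members, 6 on chromosome 1 and 1 on chromosome 17, and of the 10 bins 6 were members, all on chromosome 1. In the input 73 members (94.8%) were at 0.05 or less, against 9.9% of the bins that met the RGM limit and 17.3% of all autosomal bins. Only 4 autosomal bins met the RGM limit and were at 0.05 or less in all 6 Cas9 libraries. Such bins are members by definition. All 4 were on chromosome 1, starting at 41644001, 45522001, 66794001 and 66795001.

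The summed densities of the knockout and control libraries at the members did not differ beyond counting error. The ratio of the knockout to the control density was 1.01 (0.937 to 1.09) over all members, 0.973 (0.888 to 1.06) on chromosome 17, 1.04 (0.634 to 1.67) on chromosome 1 and 1.14 (0.972 to 1.33) in the single bins. With 1 library of each, the spread between cultures is not known.

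The knockout and control libraries also differed from the rest away from the members. Of all autosomal bins, 110885 were at 0.05 or less in all 5 libraries of the rule, RGM included. Of these, 43670 (39.4%) had a density of 0.3 or more in the knockout library and 43376 (39.1%) in the control library, against 441 (0.398%) in the input. The share of autosomal bins at 0.05 or less was 6.61% and 9.08% in the RGM anti-FLAG and anti-GZF1 libraries and 5.39% to 5.85% in the Cas9 libraries of the rule. The part of this difference between libraries in the densities at the members was not tested.

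The members numbered 77, against 2276 autosomal bins for the opposite rule. That rule asked for 0.3 or more in the 3 Cas9 libraries and 0.05 or less in both RGM libraries. Members had to be nearly empty in 3 libraries, whereas bins of the opposite rule had to be so in the RGM pair only. Library depths differed too. RGM anti-GZF1 averaged 8.61 reads per autosomal bin, against 15.9 for H3K27ac, the lowest of the 3 Cas9 libraries. The counts 77 and 2276 therefore do not compare the lines like for like. In those 2276 bins the knockout library had a density of 0.977 and the control library 0.957, with 0 bins at 0.05 or less in either, and the input had 0.614 with 26% of bins at 0.05 or less.

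Bins were also chosen by each antibody pair apart and then read in the other pair. The same limits on the anti-FLAG libraries alone picked 623 bins, 89 of them on the chromosome 17 stretch. Of these 89, the anti-GZF1 libraries had 66 (74.2%) at 0.3 or more in RGM cells and 87 (97.8%) at 0.05 or less in Cas9 cells, against 222 (41.6%) and 89 (16.7%) of the other 534. The anti-GZF1 libraries alone picked 1750 bins, 77 of them on the stretch. Of these 77, the anti-FLAG libraries had 71 (92.2%) at 0.3 or more in RGM cells and 70 (90.9%) at 0.05 or less in Cas9 cells, against 635 (38.0%) and 255 (15.2%) of the other 1673. Over all autosomal bins, 81.3% were at 0.3 or more in both RGM libraries jointly, so each alone reached 0.3 in at least that share. The RGM shares alone therefore do not set the stretch apart. At 0.05 or less were 5.63% of autosomal bins in the Cas9 anti-GZF1 library and 5.39% in the Cas9 anti-FLAG library. The extent of the stretch was itself set with all 5 libraries. Members, which meet the limits in both pairs, made up 61 of the 89 bins and 61 of the 77. The shares on the stretch are therefore a description and do not measure agreement between the antibodies.

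The limits cut through thin counts. The member with the lowest RGM anti-FLAG density had 0.302, and the nearest bin that failed only there had 0.289. For RGM anti-GZF1, where 1 read is a density of 0.116, the values were 0.302 inside and 0.232 outside. For the Cas9 libraries the highest member and the nearest bin outside had 0.0368 and 0.0551 with anti-FLAG, 0.0424 and 0.0572 with anti-GZF1, and 0 and 0.0630 with H3K27ac, where 0.0630 is 1 read. Bins that failed a single library's limit numbered 106 for RGM anti-FLAG, 50 for RGM anti-GZF1, 44 for Cas9 anti-FLAG, 23 for Cas9 anti-GZF1 and 20 for H3K27ac. With a library left out of the rule, as tried after the data were seen, the members numbered 183 without RGM anti-FLAG, 127 without RGM anti-GZF1 and 121 without Cas9 anti-FLAG. Without Cas9 anti-FLAG the density over the members was 0.840 in the knockout library and 0.795 in the control library. On the chromosome 17 stretch the same settings gave 66, 83 and 67 members, against 61.

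In the RefSeq annotation 14 genes touched a member bin: 8 coding genes, 4 pseudogenes and 2 long noncoding RNA genes. None was covered in full, and 9 regions touched no gene. Of the 77 member bins 43 (55.8%) touched a gene, against 53.8% of the bins that met the RGM limit and 49.5% of all autosomal bins. Of 26 gene families listed by their symbols, 2 had genes among the 14. The zinc finger genes (Zfp) had 2, Zfp978 and Zfp988, which share the bin on chromosome 4; this family makes up 0.869% of autosomal genes. Predicted genes (Gm) had 6, 42.9% of the 14 against 42.8% of all autosomal genes. Olfactory and vomeronasal receptors, defensins, histocompatibility genes and the other families listed had 0. The 4 named make up 3.02%, 1.32%, 0.176% and 0.106% of autosomal genes in that order. The largest of the others, names ending in Rik, makes up 4.72%. Among 14 genes a count of 0 is near such shares, so it does not set the members apart.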

How the data were processed

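The authors deposited a single table of estimated counts of reads per 1 kb bin of mm10 for 8 libraries, with no scaling that is recorded. They are called estimated counts because all values are steps of 0.05 rather than whole reads, and library totals differ. The tools cutadapt, Bowtie2 2.5.4, SAMtools and deepTools are named, without their roles, per the submitters' processing notes, and how reads with several alignments were treated is not given in the sources used here. A read density is a bin's value over the autosomal mean of its library. Exact Poisson intervals for summed reads cover counting error only, since sequenced reads are not independent molecules, and 0 reads is given a limit of 3 reads. Sums over gene spans weight edge bins by overlap. Intervals came from scipy 1.17.1, and tables were handled with pandas 2.3.3 under Python 3.11.15. The rule was tried on simulated libraries of even coverage with planted gaps, and the Poisson intervals and the merging on known answers. The real coverage is less even, and the other steps were not tested in this way. The members and lists were chosen with earlier results of these data known. Regions were named by their number of member bins, and genes by the share of their span in member bins; promoters and gene copies beside the stretch fall outside that rule. Labels and annotation are from GEO and RefSeq (GRCm38.p6).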

Additional observations from a re-analysis of the deposited data

How the results depend on the processing

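No paired analysis was possible because every group has 1 library and no result comes from a test. The results followed through other settings were the numbers of members and regions and, in the knockout, control and input libraries, the pooled density over the members and the share of members at 0.05 or less. Results not named under a setting stayed within counting error there, or within 1.5 times for a count. Scaling to the median of bins above 0 kept 77 of the 77 members and scaling to the chromosome mean 74. With scaling to the chromosome mean there was a density of 0.527 (control). With an RGM limit of 0.2 there were 125 members, 46 regions and densities of 0.557 (knockout) and 0.536 (control). With an RGM limit of 0.5 there were 40 members, 11 regions and densities of 0.392 (knockout) and 0.426 (control). With a Cas9 limit of 0.02 there was a density of 0.464 (control). With a Cas9 limit of 0.1 there were 43 regions and densities of 0.643 (knockout) and 0.617 (control). With the anti-FLAG libraries alone there were 623 members, 510 regions, densities of 0.840 (knockout), 0.802 (control) and 0.212 (input) and shares of 1.44% (knockout), 1.12% (control) and 63.7% (input). With the anti-GZF1 libraries alone there were 1750 members, 1613 regions, densities of 0.902 (knockout), 0.858 (control) and 0.271 (input) and shares of 0.629% (knockout), 0.514% (control) and 58.6% (input). Without H3K27ac there were 36 regions and densities of 0.603 (knockout) and 0.577 (control). With runs of 2 or more members only there were 45 members, 9 regions and densities of 0.432 (knockout) and 0.431 (control). With members that have 2 member neighbours only there were 13 members, 6 regions, densities of 0.437 (knockout), 0.428 (control) and 0 (input) and a share of 100% (input). Merging only touching bins gave 48 regions. The settings that follow were added after the data were seen. Without RGM anti-FLAG there were 183 members, 120 regions and densities of 0.686 (knockout), 0.666 (control) and 0.0513 (input). Without RGM anti-GZF1 there were 127 members, 43 regions and densities of 0.587 (knockout) and 0.581 (control). Without Cas9 anti-FLAG there were 121 members, 58 regions, densities of 0.840 (knockout), 0.795 (control) and 0.0775 (input) and a share of 85.1% (input). Without Cas9 anti-GZF1 there were 41 regions, densities of 0.559 (knockout), 0.546 (control) and 0.0604 (input) and a share of 87% (input). With members outside the chromosome 17 stretch only there were 16 members, 13 regions, densities of 0.700 (knockout), 0.622 (control) and 0.0637 (input) and shares of 37.5% (knockout) and 37.5% (control). On the chromosome 17 stretch the number of members ran from 54 to 83 over the settings that moved a limit to 0.02, 0.1 or 0.2 or left out a single library, and was 37 at the RGM limit of 0.5. The cause of these shifts was not tested. The input averaged 3.93 reads per bin and the RGM anti-GZF1 library 8.61, so the density of a single bin is imprecise there.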

Other observations

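The same limits were met by 0 of 171032 bins on the X chromosome and by 2 of 91745 bins on the Y chromosome, scaled to the autosomal mean.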
